A study of Homo sapiens with 6 samples.

Results

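Solute carriers are the membrane proteins that move sugars, amino acids, ions, vitamins and metabolites across the plasma membrane and the membranes of organelles without hydrolysing ATP. The genes described here are the rows of the expression table whose platform symbol has the form SLC, a family number, A and a member number; SLCO genes, pseudogenes and antisense transcripts were left out. This gave 17 genes in 11 families, each with 1 row, out of 53617 rows. The RefSeq gene table holds 347 protein-coding genes with symbols of that form, so most of the superfamily is unnamed here: 37519 rows carry no symbol in the annotation used. Of 17 widely studied transporters listed for attention, among them SLC2A1, SLC3A2, SLC7A5, SLC7A11 and SLC30A1, 0 were among the named rows, and of 8 kidney tubule transporters, such as SLC12A1 and SLC34A1, also 0. The label of a general solute carrier set therefore holds only in part. The measured genes are mostly recently numbered families of the major facilitator type, together with the PQ-loop family SLC66, a pair of mitochondrial ornithine carriers and SLC38A12. Of the substrate classes set by family number, the metal and anion classes had 0 named genes, the sugar class 2 and the amino acid class 1. These classes do not follow the substrate of each gene. SLC66A1, SLC75A1 and the ornithine carriers, described below, were placed in other classes.

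The cells were Flp-In HEK293, derived from human embryonic kidney, and were made with a kit that puts a construct into a fixed genomic site under an inducible promoter. A group of 3 arrays came from cells that stably expressed TDNC1, and 3 arrays came from control cells that stably expressed a random RNA. Both groups grew in high glucose DMEM with 10% FBS, 2 mM L-glutamine, 1% Pen-Strep, 15 µg/ml blasticidin and, after transfection, 50 µg/ml hygromycin. Stable colonies were pooled, and the labels state neither what TDNC1 stands for nor whether the cells were induced. The series title states the question as the effect of TDNC1 on gene expression. The arrays of a group are called biological replicates without naming separate cultures, so the p-values measure only the spread between these samples, which may be technical.

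Solute carriers are grouped by sequence into numbered families, and members of a family often share a substrate class while differing in membrane and tissue. Many of the higher-numbered families were renamed from MFSD, PQLC and TMEM genes and have substrates that are still poorly known. In cells that grow in rich medium, sugar and amino acid carriers feed growth, lysosomal carriers return amino acids and vitamins from degraded protein, and mitochondrial carriers supply metabolites to the matrix.

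Array medians over all rows lay between 5.16 and 5.22 on the log2 scale. TDNC1 replicate 3 stood apart from its group over the whole table. Its median absolute difference was 0.188 and 0.177 from TDNC1 replicates 1 and 2, which differed by 0.134 from each other. From control replicates 1, 2 and 3 it was 0.161, 0.156 and 0.136. Control replicate 3 stood apart from its group too, at 0.162 and 0.160 from control replicates 1 and 2, which differed by 0.136. The difference of each carrier without TDNC1 replicate 3 is drawn in the plot of group differences, and the larger shifts are given in the text. That array was singled out from these same data, so p-values without it are descriptive and are not support for a difference. Of the markers listed for HEK293 cells, 2 of 5 were named, vimentin (VIM) at a mean of 8.69 and the kidney lineage factor PAX2 at 6.12. The fibroblast markers DCN and LUM lay at 2.26 and 3.61, below the lower quartile of row means (3.81). The epithelial markers EPCAM, KRT18, KRT19 and KRT8 lay between 6.59 and 9.92. After adjustment 0 of the 8 named markers passed limma's test, where 1 row of the table (0.00187%) did. PAX2 was higher on all 3 TDNC1 arrays, at 6.49, 6.26 and 6.22 against 5.87, 5.78 and 6.09. Its log2 difference was 0.41 (limma unadjusted p = 0.013, where 3.74% of all rows were higher at p under 0.05), and that of VIM was -0.04.

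All 17 solute carrier rows lay in the upper part of the signal range. Their means over the 6 arrays ran from 5.31 to 9.79, against a median of 5.17 over all rows. The upper quartile of rows held 11 of the 17, against 40.8% of the rows with a symbol, and 0 of the 17 lay below the median of all rows. That median is over 53617 rows, of which 37519 carry no symbol. The share of rows with a symbol that lay below it was not computed. Such positions depend on the probes of each row as well as on the transcript, so no order between genes is drawn from them.

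**Figure D1:**
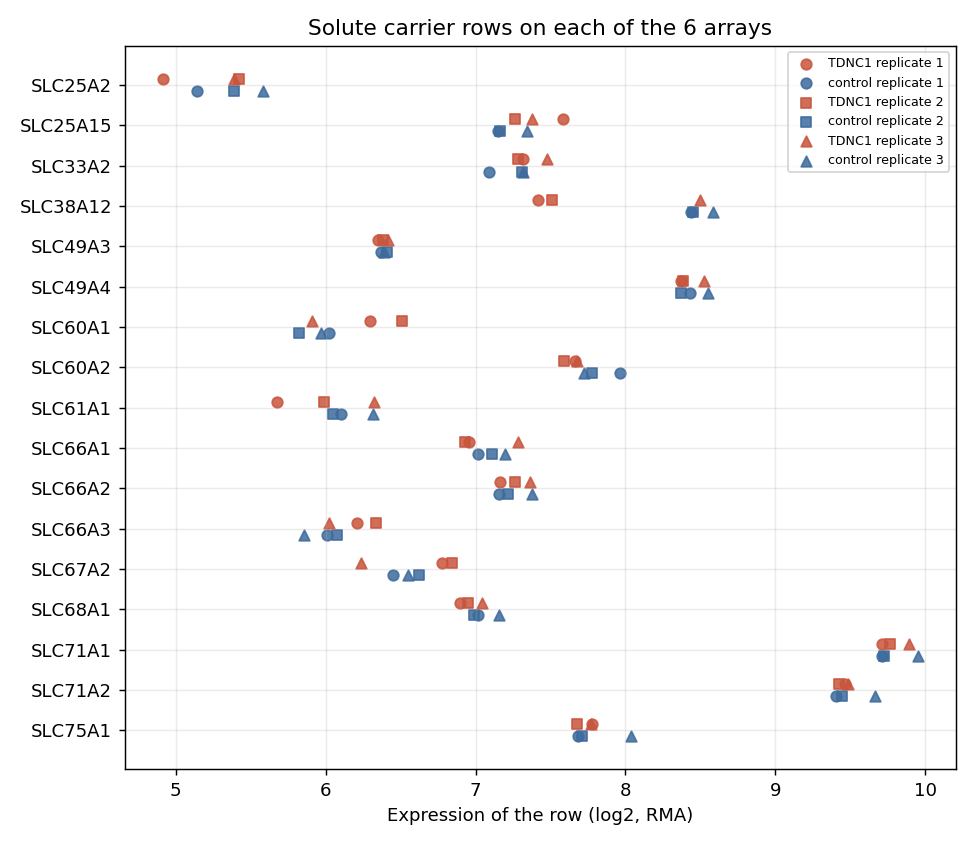
Log2 expression (horizontal axis) of each of the 17 solute carrier rows on the 3 TDNC1 arrays (red) and the 3 control arrays (blue), with circles, squares and triangles for replicates 1, 2 and 3. SLC38A12 is the gene whose TDNC1 replicates 1 and 2 (7.42 and 7.51) lie far to the left of its other 4 values (8.44 to 8.58).

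Between TDNC1 and control cells, 0 of the 17 genes passed limma after p-values were adjusted over all rows by the Benjamini-Hochberg method (smallest adjusted p = 0.646), where 1 row of the table, or 0.00187%, passed. At an unadjusted p under 0.05, 1 member was lower in TDNC1 (3.96% of all rows) and 0 were higher (3.74% of all rows). That member was SLC38A12, and its unadjusted p rose above 0.05 when any single array other than TDNC1 replicate 3 was left out, so that the count became 0. The groups did not overlap for 1 member, SLC60A2, lower in TDNC1, against 13.2% of all rows (6.48% higher, 6.7% lower). Log2 differences ran from -0.68 to 0.30 with a median of -0.02, and the median over all rows was -0.01. Of the 17 genes, 11 had negative and 6 positive values, and 9 had a difference under 0.1 in size. The sign held under all 14 alternative settings for 7 genes, positive for SLC25A15, SLC33A2, SLC60A1 and SLC66A3 and negative for SLC38A12, SLC60A2 and SLC68A1. For the other 10 it turned in at least 1 setting. The standard errors lay between 0.08 and 0.27, and for 13 members the 95% interval stayed within 0.5 of 0 on both sides, as it did for 64.3% of all rows. For the other 4, SLC25A2, SLC38A12, SLC60A1 and SLC61A1, larger differences lie inside the interval. In bulk RNA of this kind, fewer cells with a transcript and less transcript per cell cannot be told apart.

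**Figure D2:**
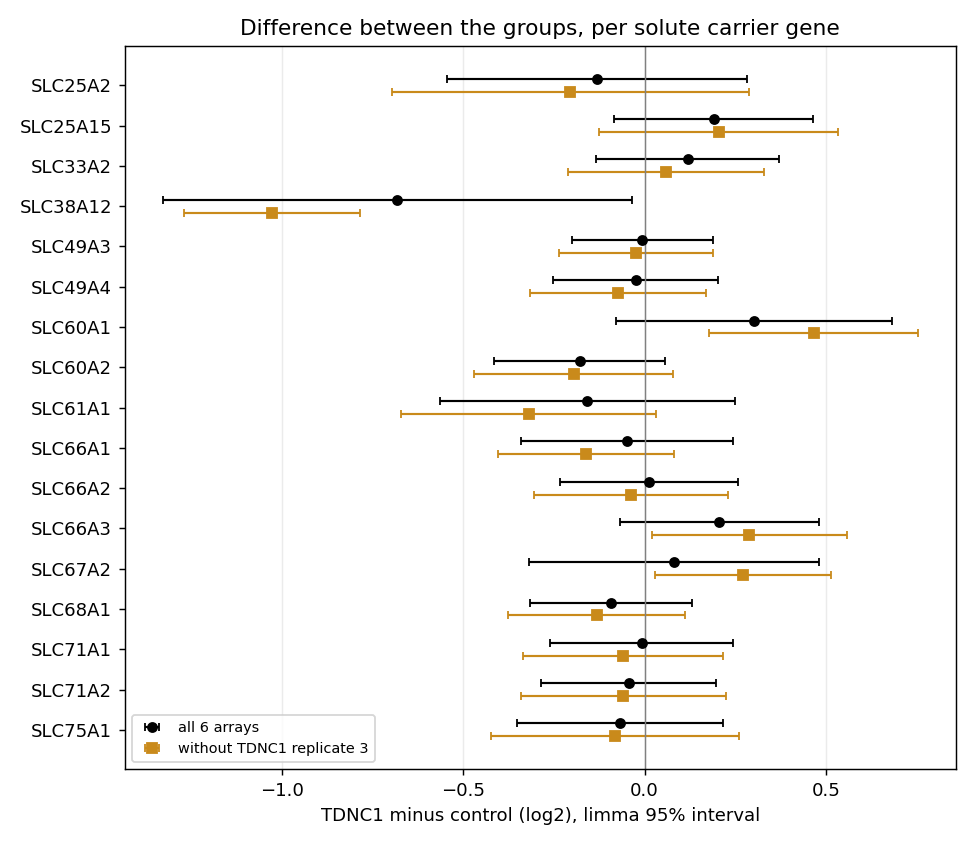
Difference between TDNC1 and control (log2, horizontal axis) for each gene with its 95% interval from limma, with all 6 arrays (black circles) and without TDNC1 replicate 3 (orange squares). The interval of SLC38A12 alone excludes 0 with all arrays, and those of SLC38A12, SLC60A1, SLC66A3 and SLC67A2 exclude 0 without that array.

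Among the amino acid carriers by family number, SLC38A12 was the single named gene (row 16837646, Entrez 54868, chromosome 17). It was long called TMEM104 and is placed in the SLC38 family, whose better known members carry glutamine and other small neutral amino acids. Its expression was 7.42, 7.51 and 8.50 in TDNC1 replicates 1, 2 and 3, and 8.44, 8.45 and 8.58 in the controls. TDNC1 replicates 1 and 2 thus lay about 1 log2 unit below every control array, whereas TDNC1 replicate 3 lay inside the control range, so the groups overlapped. The TDNC1 mean was 7.81 ± 0.60 (SD, n = 3) and the control mean 8.49 ± 0.08 (SD, n = 3), a log2 difference of -0.68 (SE 0.27, 95% interval -1.33 to -0.03, limma adjusted p = 0.646). Without TDNC1 replicate 3 the difference was -1.03 (SE 0.10, 95% interval -1.27 to -0.78), or 2.04-fold lower, and it still missed the threshold (limma adjusted p = 0.0624), where 23 rows (0.0429%) passed. The sequence before its annotated start is shown because SLC38A12 had the largest difference among the members, together with those of the SLC60 pair described next, whose members differed in sign. These are the 250 bases before the RefSeq start in GRCh38.p14, written 5′ to 3′ on the strand of the gene, at chr17:74776249-74776498, chr1:205568764-205569013 and chr6:111259089-111259338, all on the plus strand. Capitals mark matches on either strand to TGCNCNC (a loose form of the metal response element core) or ACGTG (the hypoxia response element core). They also mark CACGTG (an E box, which contains ACGTG). The metal response element core allows only a purine (adenine or guanine) where TGCNCNC has its first open base, so some matches fall outside it.
SLC38A12: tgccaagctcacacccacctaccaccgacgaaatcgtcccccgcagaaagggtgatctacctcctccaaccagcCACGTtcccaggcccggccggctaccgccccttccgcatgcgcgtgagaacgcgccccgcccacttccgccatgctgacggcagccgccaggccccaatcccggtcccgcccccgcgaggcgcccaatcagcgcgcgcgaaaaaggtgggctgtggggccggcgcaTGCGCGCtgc
SLC60A1: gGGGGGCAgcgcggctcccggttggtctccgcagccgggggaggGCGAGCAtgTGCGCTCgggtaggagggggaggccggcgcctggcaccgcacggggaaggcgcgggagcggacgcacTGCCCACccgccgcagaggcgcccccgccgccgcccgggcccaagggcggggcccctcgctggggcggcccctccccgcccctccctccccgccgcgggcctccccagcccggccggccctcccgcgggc
SLC60A2: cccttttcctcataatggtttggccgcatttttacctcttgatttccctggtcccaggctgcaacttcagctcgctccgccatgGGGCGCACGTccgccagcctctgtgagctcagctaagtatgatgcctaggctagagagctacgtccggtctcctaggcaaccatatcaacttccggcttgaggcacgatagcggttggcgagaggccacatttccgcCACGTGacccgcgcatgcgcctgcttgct

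The SLC38A12 window held 1 match to TGCNCNC and 1 to ACGTG. The SLC60A1 window held 4 matches to TGCNCNC and 0 to ACGTG. In the SLC60A2 window there were 1 match to TGCNCNC, 3 to ACGTG and 1 E box. GC content was 70.8%, 84.4% and 58.0% for SLC38A12, SLC60A1 and SLC60A2. Promoter windows were found for 14 of the 17 genes. TGCNCNC occurred in 8 of these 14 and in 48.4% of 27305 windows of the same length, ACGTG in 4 and in 18.7%, the E box in 1 and in 6.49%, and TGATGNAAN, the response element of the amino acid stress factor ATF4, in 0 and in 3.18%. A match is a run of letters, not evidence of a bound site.

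The sugar class held SLC60A1 and SLC60A2, formerly MFSD4A and MFSD4B, the second of which is also known as the sodium-dependent glucose transporter NaGLT1 of the kidney. SLC60A1 (row 16676498, Entrez 148808, chromosome 1) stood at 6.30, 6.51 and 5.91 in TDNC1, and at 6.02, 5.82 and 5.97 in the control. TDNC1 replicates 1 and 2 were above all controls, and TDNC1 replicate 3 lay among them. The log2 difference was 0.30 (SE 0.16, 95% interval -0.08 to 0.68, limma adjusted p = 0.678), and without TDNC1 replicate 3 it was 0.47 (SE 0.12, limma adjusted p = 0.188). SLC60A2 (row 17011721, Entrez 91749, chromosome 6) stood at 7.67, 7.59 and 7.68 in TDNC1, below the control values of 7.96, 7.78 and 7.72 on every array. Here TDNC1 replicate 3 lay with the other TDNC1 arrays, and the gap to the lowest control was small. The log2 difference was -0.18 (SE 0.10, 95% interval -0.41 to 0.06, limma adjusted p = 0.688). SLC60A2 kept a negative value in each of the 14 alternative settings, with adjusted p from 0.397 to 0.920.

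The opposite signs of the SLC60 pair were examined on each array as the log2 value of SLC60A1 minus that of SLC60A2. On the TDNC1 arrays this was -1.37, -1.08 and -1.77, and on the controls -1.94, -1.96 and -1.75, so TDNC1 replicate 3 lay just below control replicate 3 while replicates 1 and 2 lay above all controls. The means differed by 0.48, with an exact two-sided permutation p of 0.20 and an adjusted p of 0.70 over the 7 within-family pairs compared. With 3 arrays against 3 the smallest p such a test allows is 0.10. For the other 6 pairs the group difference ran from -0.32 (SLC25A2 minus SLC25A15) to 0.04 (SLC71A1 minus SLC71A2), with exact permutation p between 0.30 and 0.90. The near relatives SLC71A1 and SLC71A2 had a distance of 0.33 ± 0.08 (SD, n = 3) on the TDNC1 arrays and 0.29 ± 0.02 (SD, n = 3) on the controls.

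The SLC66 family, with 3 members, carries the PQ-loop repeat of lysosomal amino acid exporters. SLC66A1 (PQLC2; row 16660212, Entrez 54896, chromosome 1) releases lysine, arginine and histidine from the lysosome. It stood at 6.96, 6.93 and 7.29 in TDNC1, and at 7.02, 7.11 and 7.20 in the control. TDNC1 replicates 1 and 2 were the lowest of the 6 arrays and TDNC1 replicate 3 the highest, and the log2 difference was -0.05 (SE 0.12, limma adjusted p = 0.934), and -0.16 (SE 0.10) without TDNC1 replicate 3. SLC66A2 (PQLC1; row 16856133, Entrez 80148, chromosome 18), a less studied relative, gave 7.16, 7.26 and 7.37 against 7.16, 7.22 and 7.38, a difference of 0.01 (SE 0.10). Its groups nearly coincided, with a 95% interval of -0.23 to 0.26. SLC66A3 (PQLC3; row 16877133, Entrez 130814, chromosome 2) stood at 6.21, 6.33 and 6.02 against 6.01, 6.08 and 5.86. Here TDNC1 replicates 1 and 2 exceeded every control and TDNC1 replicate 3 did not. The difference of SLC66A3 was 0.21 (SE 0.12, limma adjusted p = 0.688), and 0.29 (SE 0.11, limma adjusted p = 0.318) without TDNC1 replicate 3.

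The mitochondrial carriers SLC25A15 and SLC25A2 exchange ornithine for citrulline across the inner membrane, a step of the urea cycle, and loss of SLC25A15 causes the hyperornithinaemia, hyperammonaemia and homocitrullinuria syndrome. SLC25A15 (row 16774235, Entrez 10166, chromosome 13) stood at 7.58, 7.26 and 7.38 in TDNC1, and at 7.15, 7.16 and 7.34 in the control. The TDNC1 values were mostly higher, but control replicate 3 lay above TDNC1 replicate 2. The log2 difference was 0.19 (SE 0.12, 95% interval -0.08 to 0.46, limma adjusted p = 0.700), and leaving out single arrays moved it between 0.10 and 0.26. SLC25A2 (row 17000850, Entrez 83884, chromosome 5) spread over 0.51 on the TDNC1 arrays and 0.44 on the controls. It gave 4.91, 5.42 and 5.39 in TDNC1 against 5.14, 5.39 and 5.58, a difference of -0.13 (SE 0.18, 95% interval -0.54 to 0.28), and -0.20 (SE 0.20) without TDNC1 replicate 3. TDNC1 replicate 1 alone lay below the controls.

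The SLC49 family is known for haem transport through its founding members, and SLC49A4 (DIRC2) is a lysosomal membrane protein. SLC49A4 (row 16944724, Entrez 84925, chromosome 3) stood at 8.37, 8.38 and 8.52 in TDNC1, and at 8.43, 8.37 and 8.55 in the control, a log2 difference of -0.02 (SE 0.10). SLC49A3 (MFSD7; row 16973331, Entrez 84179, chromosome 4) varied least of all members. Its 6 values lay between 6.35 and 6.42, its difference was -0.01, and it had the smallest standard error of the set, 0.08, with a 95% interval of -0.20 to 0.19. For both genes the groups overlapped, and limma gave adjusted p of 0.958 for SLC49A4 and 0.987 for SLC49A3.

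SLC71A1 and SLC71A2, formerly MFSD14A and MFSD14B and first named for a hippocampus-abundant transcript, both had rows in the upper quartile of the table. SLC71A1 (row 16667608, Entrez 64645, chromosome 1) stood at 9.71, 9.76 and 9.89 in TDNC1, and at 9.71, 9.73 and 9.95 in the control. In both groups replicate 3 was the highest array, and the log2 difference was -0.01 (SE 0.11). SLC71A2 (row 17087034, Entrez 84641, chromosome 9) gave 9.47, 9.43 and 9.49 against 9.40, 9.44 and 9.67, a difference of -0.04 (SE 0.10). Its TDNC1 arrays lay within the control range. The 95% intervals were -0.26 to 0.24 for SLC71A1 and -0.29 to 0.20 for SLC71A2.

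The remaining members are single genes of their families. SLC61A1 (MFSD5; row 16751700, Entrez 84975, chromosome 12) is related to the molybdate transporters of algae and plants. It stood at 5.68, 5.99 and 6.32 in TDNC1, and at 6.10, 6.05 and 6.32 in the control. TDNC1 replicates 1 and 2 were below all controls and TDNC1 replicate 3 was level with control replicate 3. The difference was -0.16 (SE 0.17), and -0.32 (SE 0.14, limma adjusted p = 0.383) without TDNC1 replicate 3. SLC67A2 (MFSD9; row 16901255, Entrez 84804, chromosome 2), a carrier of unsettled substrate, gave 6.78, 6.85 and 6.24 against 6.45, 6.62 and 6.55. Its first 2 TDNC1 arrays lay above and the third below every control, so the values cancelled in the mean, with a difference of 0.08 (SE 0.17). Without TDNC1 replicate 3 the difference of SLC67A2 was 0.27 (SE 0.10, limma adjusted p = 0.303).

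SLC33A2 (MFSD3; row 17073908, Entrez 113655, chromosome 8) belongs to the family of the acetyl-CoA transporter SLC33A1 of the endoplasmic reticulum. It stood at 7.32, 7.28 and 7.48 in TDNC1, and at 7.09, 7.31 and 7.31 in the control, a log2 difference of 0.12 (SE 0.11), and 0.06 (SE 0.11) without TDNC1 replicate 3. The TDNC1 value was highest in replicate 3, and the groups overlapped. SLC68A1 (MFSD13A; row 16708674, Entrez 79847, chromosome 10) gave 6.90, 6.95 and 7.04 against 7.02, 6.99 and 7.16, a difference of -0.09 (SE 0.10). SLC75A1 (MFSD10, or TETRAN; row 16973771, Entrez 10227, chromosome 4), described as an organic anion exporter, stood at 7.78, 7.68 and 7.77 against 7.68, 7.71 and 8.04. Control replicate 3 was the one high value of SLC75A1, and the difference was -0.07 (SE 0.12). Limma gave adjusted p of 0.786, 0.814 and 0.896 for SLC33A2, SLC68A1 and SLC75A1.

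**Figure D3:**
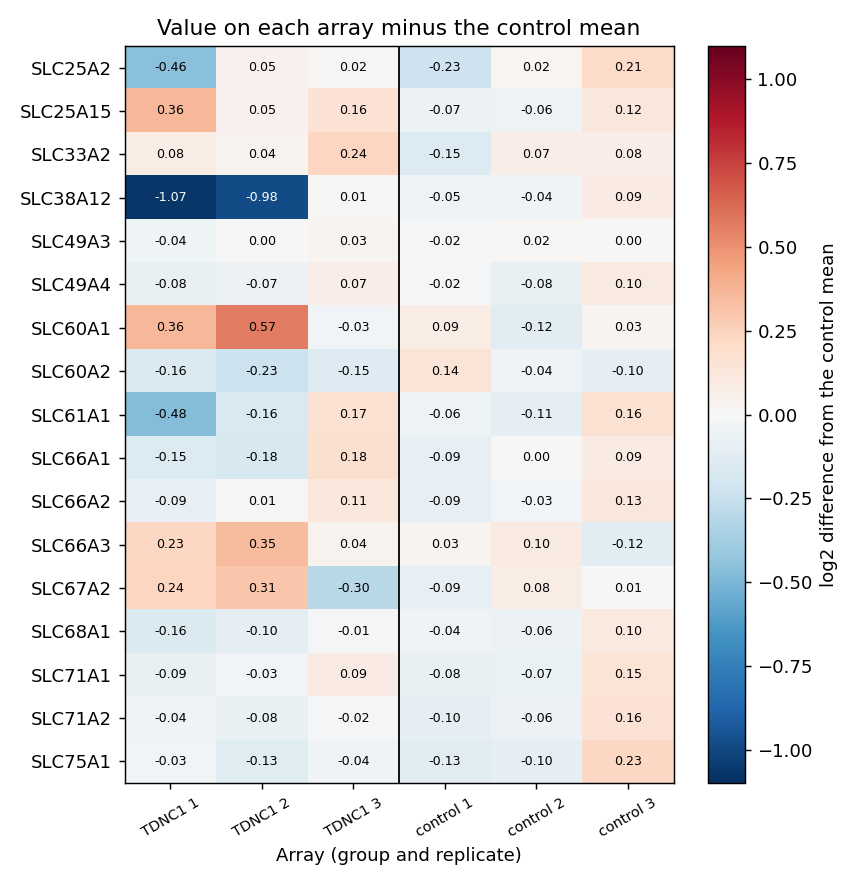
Value of each gene on each array minus the mean of its 3 control arrays (log2, colour and printed number), with TDNC1 arrays left and control arrays right of the black line. SLC38A12 has -1.07 and -0.98 in TDNC1 replicates 1 and 2 and 0.01 in TDNC1 replicate 3.

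In 8 of the 17 genes TDNC1 replicates 1 and 2 both lay on the same side of all controls, where 33.3% of all rows did. SLC60A1, SLC66A3 and SLC67A2 were above (15.9% of all rows), and SLC38A12, SLC60A2, SLC61A1, SLC66A1 and SLC68A1 were below (17.3% of all rows). TDNC1 replicate 3 lay on that same side for 1 of the 8, SLC60A2. It lay within the control range for 4 and on the opposite side for 3. Over all 17 genes TDNC1 replicate 3 lay within the control range for 10, as for 50.6% of all rows. Without TDNC1 replicate 3, 3 members were higher at an unadjusted p under 0.05 in limma, SLC60A1, SLC66A3 and SLC67A2, where 6.87% of all rows were. On the lower side it was SLC38A12 alone, where 7.62% of all rows were. None of the 17 passed after adjustment (smallest adjusted p = 0.0624). The median log2 difference over the members was then -0.06, and -0.02 over all rows. TDNC1 replicate 3 departed from the mean of TDNC1 replicates 1 and 2 in both directions among members, from -0.57 in SLC67A2 to 1.04 in SLC38A12. The part of that array in each result was not tested beyond leaving it out.

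Replicate 3 was the highest array of its group for 11 members in TDNC1 (37.3% of all rows) and for 12 in the control (34.1% of all rows). Both held for 9 members, against 14.4% of all rows. They were SLC33A2, SLC38A12, SLC49A4, SLC61A1, SLC66A1, SLC66A2, SLC68A1, SLC71A1 and SLC71A2. The median deviation of the 17 genes from their control means was 0.03 in TDNC1 replicate 3 and 0.10 in control replicate 3, and between -0.08 and -0.03 on the other 4 arrays. Members shared these arrays, so the 9 genes are not independent events, and the cause of the pattern was not tested.

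**Figure D4:**
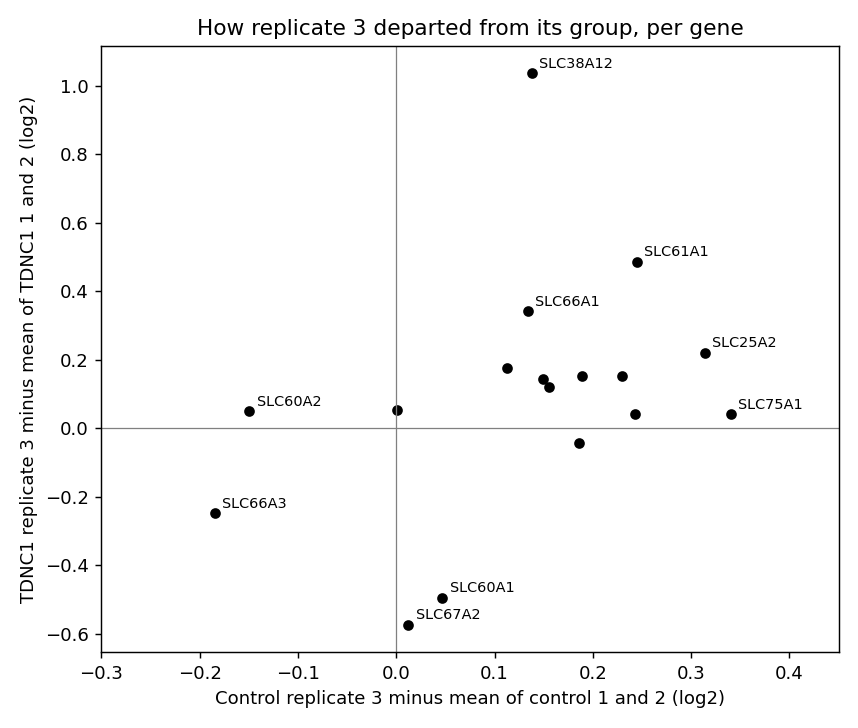
Replicate 3 minus the mean of replicates 1 and 2 (log2) in the control (horizontal axis) and in TDNC1 (vertical axis), 1 point per gene, with the genes farthest from the others named. SLC38A12 departs by 1.04 in TDNC1 and 0.14 in the control, and SLC67A2 and SLC60A1 by -0.57 and -0.49 in TDNC1.

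Partners and regulators of transport were read beside the carriers, from a list of 42 genes of which 27 were named. Of these, 0 passed limma's test over all rows. At an unadjusted p under 0.05, 5 had positive and 2 negative differences, where 3.74% and 3.96% of all rows did, and the median log2 difference was 0.02. The smallest p among them belonged to CLTRN, which escorts amino acid carriers of the SLC6 family to the membrane, and whose row lay below the median of all rows. It stood at 4.87, 5.12 and 4.35 in TDNC1, and at 3.99, 3.96 and 4.15 in the control, a log2 difference of 0.74, and 0.96 without TDNC1 replicate 3 (limma adjusted p = 0.0943). CLTRN did not overlap between the groups, and TDNC1 replicate 3 was its lowest TDNC1 array. Such a lack of overlap held for 6 of the 27 partners, among them CLTRN, ARRDC4, ASNS and MLX, against 13.2% of all rows. ARRDC4, an arrestin-like protein that limits glucose uptake, had a difference of 1.22 with all arrays (limma adjusted p = 0.631). Without TDNC1 replicate 3 the difference of ARRDC4 was 1.68 and it passed (limma adjusted p = 0.0163), where 0.0429% of all rows did. In that array ARRDC4 stood at 8.41, against 9.76 and 9.80 in TDNC1 replicates 1 and 2. The array was singled out from these same data, so that pass is not support for a difference. ASNS, the asparagine synthetase induced when amino acids are short, had 0.56 with all arrays (limma adjusted p = 0.631). Without TDNC1 replicate 3 it had 0.77 (limma adjusted p = 0.0899). Whether an amino acid response took place was not tested. MLX, the partner of the glucose sensor MondoA, stood at 9.44, 9.54 and 9.75 against 9.90, 9.98 and 9.87, a difference of -0.34. All 3 TDNC1 arrays of MLX lay below the controls. Outside these 4 with the smallest p, BSG, the chaperone of the monocarboxylate carriers, had -0.23 (limma adjusted p = 0.711), and EMB, which serves the same carriers, had 0.08.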

How the data were processed

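The 6 samples were measured as total RNA on 1 array each, of the Affymetrix Human Gene 2.0 ST kind that the series' design text names. The deposited values are log2 expression. Per the submitters' processing notes, the authors ran RMA of Affymetrix Power Tools (version and build not given in the sources used here). RMA gives all arrays the same probe distribution, which removes a shift common to most transcripts and compresses differences of dim rows. Of 53617 rows, 16098 have 1 gene symbol, 0 several and 37519 none in the platform annotation used. The Entrez identifiers of all 17 members were found in the RefSeq table of GRCh38.p14, which gave chromosomes and older names. Groups came from the sample titles. TDNC1 and control were compared with limma 3.58.1 (R 4.3.3; two-sided, lmFit then eBayes without trend or robust fitting) over all rows, with Benjamini-Hochberg adjustment and a threshold of 0.05. The step was tested on simulated data. Family pairs were compared by exact permutation. Promoter letters are RefSeq's. Replicate numbers were not taken as pairs in the main fit, and a fit with the replicate number as a block is among the alternatives below. The sample titles do not state whether same-numbered arrays were handled together. All 17 members were named, which covers the rule for named genes; of the partners list, the 4 genes with the smallest p were named by the rule, and BSG and EMB after their values were seen. The members and lists were chosen with earlier results of these data known. Arrays have no depth; 3 arrays per group limit the precision. Lists of ABC and SLCO transporters had 0 named rows.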

Additional observations from a re-analysis of the deposited data

How the results depend on the processing

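Limma was rerun under 14 alternatives. In each of them 0 members passed after adjustment, and the smallest adjusted p of any member was 0.0624 (SLC38A12 without TDNC1 replicate 3). The number higher at an unadjusted p under 0.05 was 0 with all arrays, 1 with array weights, 1 without both arrays numbered 3, and from 0 to 3 when single arrays were left out, with 3 without TDNC1 replicate 3. The number lower was 1, and from 0 to 1 when single arrays were left out, with 1 remaining only without TDNC1 replicate 3. With single arrays left out, the log2 difference of SLC38A12 ran from -1.03 to -0.49 and that of SLC60A1 from 0.17 to 0.47. Direction held in all 14 settings for 7 members, and 22 of 238 member results changed sign, for the other 10 genes, to values of at most 0.0690 in size. Without single arrays, the values ran from -0.245 to 0.0326 for SLC25A2, from -0.0241 to 0.0115 for SLC49A3, from -0.0730 to 0.0251 for SLC49A4, from -0.32 to 0.0010 for SLC61A1, from -0.162 to 0.0149 for SLC66A1, from -0.0381 to 0.0758 for SLC66A2, from -0.0319 to 0.272 for SLC67A2, from -0.0587 to 0.0690 for SLC71A1, from -0.0946 to 0.0370 for SLC71A2 and from -0.132 to 0.0458 for SLC75A1. Median centring gave 0.0152 for SLC49A3 and 0.0144 for SLC71A1. Without both arrays numbered 3, SLC71A1 had 0.0179, SLC71A2 0.0231 and SLC75A1 0.0324. The causes were not tested. The median over the members moved by less than the SD between replicates of its array medians (0.07) in all settings. So did the sugar class (SD 0.12) and the amino acid class, which is SLC38A12 alone and has a wide SD of 0.43. For these classes the SD rests on the same arrays, and leaving out 1 array of a group could not move the value by more. The comparison therefore does not show that they were stable. SLC38A12 went from -0.68 to -1.03 without TDNC1 replicate 3. The metal and anion classes had no named member and gave no value. With the replicate number as a block, 0 members passed, the median was -0.02 and SLC38A12 had -0.68. Deviations of same-numbered arrays from their group means had r = 0.04, -0.0013 and 0.05 over rows. Those of different-numbered arrays had r from -0.07 to 0.05. Deviations within a group sum to 0, so these values cannot decide whether the arrays are pairs. The numbers were not taken as pairs because the titles state no pairing. Using the mean of all rows of a symbol left the members' values as they were, since each has 1 row. All 17 rows lay above the median of row means.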

Other observations

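Of 21 further rows with an SLC symbol, 0 passed limma's test. At an unadjusted p under 0.05, 2 had positive and 0 negative differences, where 3.74% and 3.96% of all rows did, and the median log2 difference was 0.07. Most were antisense or divergent transcripts, and those named here were chosen after their values were seen. SLC60A1-AS1, antisense to SLC60A1, was higher on all 3 TDNC1 arrays, at 4.71, 4.63 and 4.65 against 4.47, 4.43 and 4.30, a difference of 0.27 (limma adjusted p = 0.631). In TDNC1 replicate 3, where SLC60A1 itself stood among the controls, the antisense row lay above them. SLC2A4RG, which encodes a regulator of the glucose transporter gene SLC2A4, stood at 8.02, 7.80 and 7.54 against 7.20, 7.51 and 7.52, a difference of 0.38. SLC35F6, a lysosomal and mitochondrial membrane protein, gave 8.14, 7.97 and 8.55 against 8.52, 8.57 and 8.61, and the low values were again those of TDNC1 replicates 1 and 2. SLC7A11-AS1 had -0.16 and SLC2A1-DT 0.12. The bile acid transporter subunits SLC51A and SLC51B had 0.02 and 0.15.

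The symbols listed for ATP-driven ion pumps gave 9 rows, with a median log2 difference of -0.03. Of these, 4 were antisense or divergent transcripts and the others were ATP13A genes, so the median does not describe ion pumps in general. Of the 9 rows, 1, ATP2B1-AS1, was higher at an unadjusted p under 0.05 in limma (3.74% of all rows) and 0 were lower (3.96% of all rows). The difference of ATP2B1-AS1 was 0.27 and its groups did not overlap, as for 13.2% of all rows. ATP13A1, which removes mislocalised proteins from the endoplasmic reticulum membrane, stood at 7.11, 7.12 and 7.89 against 7.70, 7.64 and 7.92. Potassium channel symbols gave 5 rows, all of auxiliary or regulatory proteins such as KCNIP1 and KCNE5, with a median of -0.04. At an unadjusted p under 0.05 in limma there were 0, where 3.74% of all rows were higher and 3.96% lower.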
